A study of Mus musculus with 8 samples.

Results

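The genes of the opioid peptide system were followed in RNA-seq of the mouse frontal cortex, the region that the study examined for HAR123-regulated genes because of its part in cognitive flexibility. The set held 10 of the 55536 genes in the count table, listed by symbol: the peptide precursors Penk, Pdyn and Pnoc, the receptors Oprm1, Oprd1, Oprk1 and Oprl1, and the processing enzymes Pcsk1, Pcsk2 and Cpe. All 10 had a row. These genes were chosen by name with the HAR123-KO against WT difference in Penk counts already known, so the genotype differences of these 10 genes are given as descriptions, with their errors and without p-values, and a count of those past a limit supports nothing. The libraries were made from rRNA-depleted total RNA of frontal cortex from 8-week-old mice, 4 from WT littermates and 4 from HAR123-KO mice. In the HAR123-KO mice the mouse counterpart of HAR123, an enhancer within an intron of Smg6, was deleted by CRISPR-Cas9 in zygotes of the C57BL/6J strain, and the line was then backcrossed to that strain. The deletion is therefore present in every cell of the animal, not only in cortical neurons. Neither the sex of the mice nor whether each library came from a single mouse is stated in the sources used here, so errors and p-values cover only the spread between these libraries.

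Opioid peptides are cut from larger precursor proteins inside secretory granules. Penk encodes proenkephalin, the source of Met- and Leu-enkephalin, Pdyn encodes prodynorphin, the source of the dynorphins, and Pnoc encodes the precursor of nociceptin. The convertases encoded by Pcsk1 and Pcsk2 cut at pairs of basic residues, and the carboxypeptidase encoded by Cpe trims the basic residues left at the end of each fragment. Enkephalins act mainly on the delta receptor (Oprd1) and the mu receptor (Oprm1), dynorphins on the kappa receptor (Oprk1) and nociceptin on the receptor encoded by Oprl1. All of these receptors couple to inhibitory G proteins, which lower adenylyl cyclase activity, open inwardly rectifying potassium channels and close presynaptic calcium channels. In the forebrain Penk is best known as a gene of the striatal projection neurons of the indirect type, which also carry Drd2 and Adora2a, and Pdyn as a gene of those of the direct type, while cortical interneurons also express opioid precursors.

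Enkephalin codons and the start of nociceptin can be read directly in the coding sequences, which are shown with the codons on each side. Whether a run is released as a free enkephalin or forms the start of a longer peptide cannot be read from these codons. In the GENCODE transcript of Penk (GRCm38, minus strand of chromosome 4), 6 Met-enkephalin runs and 1 Leu-enkephalin run were found among 268 codons, all of them in exon 2 of 2. All 7 runs were preceded by codons for a pair of basic residues, and 5 were flanked by such a pair on both sides. The transcript of Pdyn (minus strand of chromosome 2) held 3 Leu-enkephalin runs, all in exon 4 of 4, and that of Pnoc (minus strand of chromosome 14) the start of nociceptin in exon 3 of 4. The lines below give 1 Met-enkephalin run with a basic pair on both sides, the last Met-enkephalin run of Penk, which lacks the following pair, the only Leu-enkephalin run of Penk, the Pdyn run with the same enkephalin codons, and the start of nociceptin. Capitals mark the codons of the enkephalin (for Pnoc, the first 4 codons of nociceptin), and lower case marks the pair of codons on each side.
Penk Met-enkephalin, chr4:4134334-4134348: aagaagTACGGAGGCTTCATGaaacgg
Penk Met-enkephalin, chr4:4133848-4133862: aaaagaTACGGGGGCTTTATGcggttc
Penk Leu-enkephalin, chr4:4133941-4133955: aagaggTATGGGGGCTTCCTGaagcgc
Pdyn Leu-enkephalin, chr2:129688130-129688144: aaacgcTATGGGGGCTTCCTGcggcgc
Pnoc nociceptin start, chr14:65404881-65404892: aaaaggTTTGGGGGCTTCaccggg
The capitals of the Penk and Pdyn Leu-enkephalin runs are identical, while some of the flanking codons differ. The 7 Penk runs used 6 distinct spellings of the enkephalin codons.

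The total count per library was 13528251 to 17051001, of which Gm42418, a gene that overlaps ribosomal RNA sequence, took 55.1% to 58.0%. Its share was 56.8% to 58.0% in WT and 55.1%, 55.7%, 55.3% and 57.4% in HAR123-KO replicates 1 to 4. By this share HAR123-KO replicate 4 lay within the WT range and the other HAR123-KO libraries below it. Nuclear protein-coding genes (without Lars2, whose exons attract ribosomal reads) received 2786320 to 3732172 counts per library, and this smaller number sets the precision of the genes described here. Over these protein-coding genes, no library stood apart from the others of its genotype. A chi-square statistic over genes, divided by its degrees of freedom, was 1.21 to 1.30 for the 12 pairs within a genotype. It was 1.58 to 1.72 for the 16 pairs across genotypes, where 1 is sampling noise alone.

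Penk had the widest separation between the genotypes of the 10 opioid genes. This proenkephalin gene (ENSMUSG00000045573, chromosome 4, 4133531 to 4138819, minus strand, 3 merged exons) had 498, 483, 446 and 477 normalized counts in WT replicates 1 to 4 and 852, 815, 835 and 791 in HAR123-KO replicates 1 to 4. A normalized count is the raw read count divided by the library's DESeq2 size factor. All 4 HAR123-KO libraries lay above all 4 WT libraries, and neither group held a library apart from the rest. The mean was 476 ± 21.9 in WT and 823 ± 26.2 in HAR123-KO (n = 4 each, SD), a log2 fold change of 0.80 ± 0.05 (SE, 95% interval 0.69 to 0.90), or 1.73-fold (95% interval 1.61 to 1.87). The spread between libraries of a genotype was no wider than counting alone would give. The coefficient of variation of Penk was 4.596% in WT, where its counts alone would give 4.61%, and 3.18% in HAR123-KO, where they would give 3.44%. The log2 fold change stayed between 0.76 and 0.82 when each library was left out in turn.

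Penk reads could in principle be shared with 1 other gene. The antisense transcript A830012C17Rik overlaps 233 bases, or 14.3%, of the exons of Penk, and whether strand was used at counting is not given in the sources used here. That gene had a mean of 0.625 raw counts per library, against 442 to 949 for Penk.

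The second precursor, Pdyn (ENSMUSG00000027400, chromosome 2, 129686565 to 129699844), showed no such separation. Its normalized counts were 77.7, 95.7, 89.0 and 66.3 in WT and 75.8, 68.5, 81.9 and 73.4 in HAR123-KO, so that the HAR123-KO values lay within the WT range. The log2 fold change of Pdyn was -0.14 ± 0.15 (SE, 95% interval -0.43 to 0.15), an interval that lies wholly below that of Penk. The third precursor, Pnoc (ENSMUSG00000045731, chromosome 14, 65400673 to 65425472), was close to the detection limit, with 5 to 17 raw counts per library. Its normalized counts were 19.1, 14.4, 6.78 and 7.49 in WT and 14.3, 10.5, 12.3 and 5.32 in HAR123-KO, and at this depth a log2 fold change of -0.14 ± 0.42 (SE, 95% interval -0.96 to 0.68) leaves a change of either sign possible. Pnoc fell below the mean of 17.6 counts at which the independent filter of DESeq2 stopped, and was the 1 gene of the 10 with no adjusted p in the fit.

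**Figure D1:**
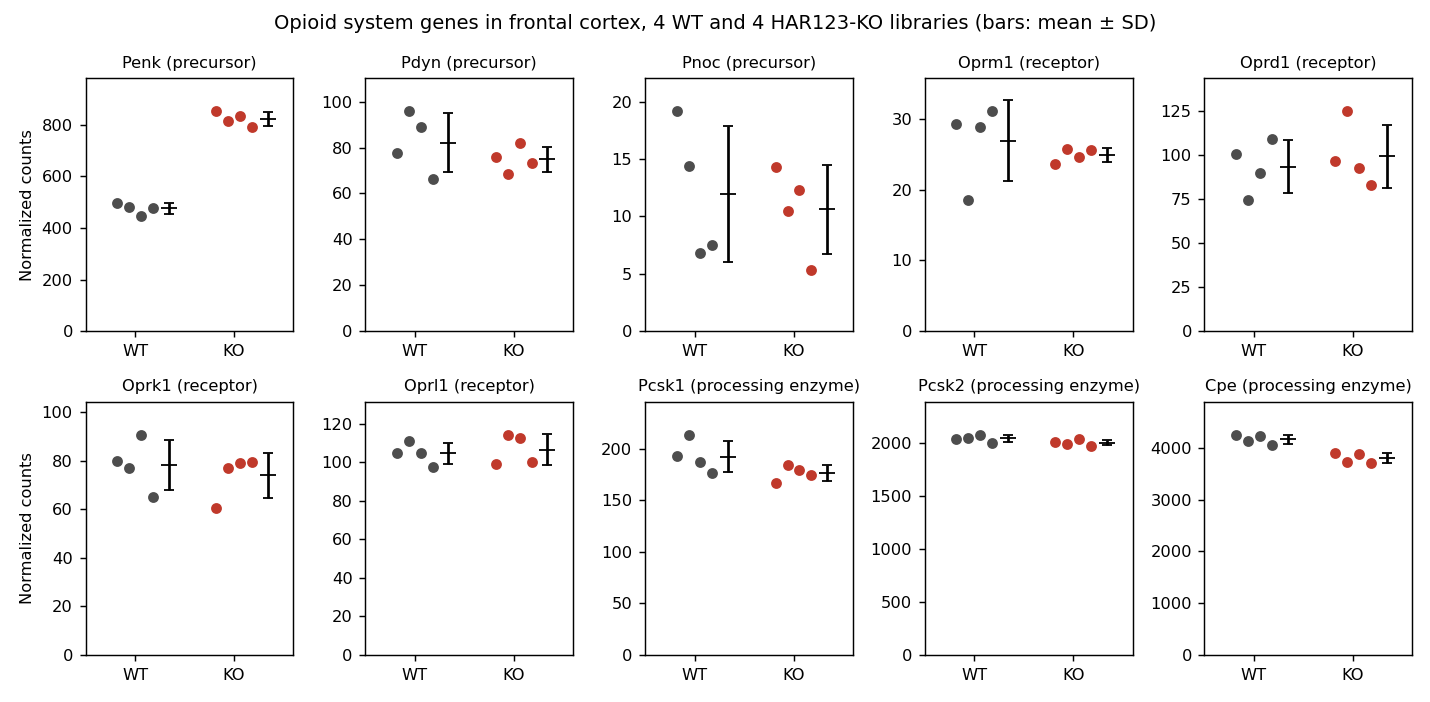
Normalized counts (vertical axes, each from 0) of the 10 opioid system genes in the 4 WT (grey) and 4 HAR123-KO (red) libraries, in replicate order, with the mean ± SD as black bars. Penk shows 2 groups that do not touch (446 to 498 and 791 to 852), Cpe shows a smaller gap in the other direction (4062 to 4248 and 3716 to 3903), and the other 8 genes overlap between genotypes.

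All 4 receptor genes overlapped between the genotypes. The delta receptor gene Oprd1, whose product is a main target of the enkephalins (ENSMUSG00000050511, chromosome 4, 132110726 to 132144486), had 100.2, 74.1, 89.8 and 109 normalized counts in the WT libraries and 96.2, 125, 92.4 and 83.0 in HAR123-KO. Its log2 fold change was 0.09 ± 0.14 (SE, 95% interval -0.19 to 0.37). The mu receptor gene Oprm1, the main target of morphine (ENSMUSG00000000766, chromosome 10, 6758506 to 7038198), had 29.3, 18.5, 28.8 and 31.0 in WT and 23.5, 25.7, 24.7 and 25.5 in HAR123-KO. The 4 HAR123-KO values of Oprm1 lay close together, inside a WT range that WT replicate 2 widened downwards, and its log2 fold change was -0.11 ± 0.26 (SE, 95% interval -0.62 to 0.39).

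The kappa receptor gene Oprk1, the target of the dynorphins (ENSMUSG00000025905, chromosome 1, 5588466 to 5606131), had 79.9, 77.2, 90.7 and 65.3 normalized counts in the WT libraries and 60.4, 77.02, 79.2 and 79.8 in HAR123-KO, with a log2 fold change of -0.08 ± 0.15 (SE, 95% interval -0.38 to 0.21). The nociceptin receptor gene Oprl1 (ENSMUSG00000027584, chromosome 2, 181715016 to 181720985) had 105, 111, 105 and 97.3 in WT and 99.3, 114, 113 and 100.0 in HAR123-KO, with a log2 fold change of 0.03 ± 0.13 (SE, 95% interval -0.22 to 0.28). For Oprd1, Oprk1 and Oprl1 the intervals stop short of 0.5 on the log2 scale in both directions, while for Oprm1, which had 18 to 34 raw counts per library, the interval reaches past -0.5. The exons of Oprm1 also share 96 bases (1.19%) with Ipcef1 on the opposite strand, which had a mean of 444.5 raw counts, so some Oprm1 counts could belong to that gene.

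Among the enzymes, Cpe differed slightly between the genotypes, without overlap. This carboxypeptidase gene (ENSMUSG00000037852, chromosome 8, 64592542 to 64693054), the most abundant of the 10, had 4248, 4136, 4232 and 4062 normalized counts in the WT libraries and 3903, 3721, 3875 and 3716 in HAR123-KO. All 4 HAR123-KO libraries lay below all 4 WT libraries, at 0.912 of the WT mean, a log2 fold change of -0.13 ± 0.03 (SE, 95% interval -0.19 to -0.08). The convertase gene Pcsk2 (ENSMUSG00000027419, chromosome 2, 143546156 to 143816285) had 2037, 2048, 2071 and 2000 in WT and 2010, 1991, 2030 and 1969 in HAR123-KO, which overlapped, with a log2 fold change of -0.03 ± 0.03 (SE, 95% interval -0.09 to 0.03). Its exons share 260 bases (3.29%) with the antisense gene Pcsk2os1, which had a mean of 21.4 raw counts. For Pcsk1, the other convertase gene (ENSMUSG00000021587, chromosome 13, 75089826 to 75134861), the values were 192, 213, 187 and 177 in WT and 167, 184, 180 and 174 in HAR123-KO, and the log2 fold change was -0.12 ± 0.10 (SE, 95% interval -0.31 to 0.07). The intervals of all 3 enzymes lay below 0.1 on the log2 scale, and so below that of Penk.

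The spread between libraries was narrow for the most counted genes and wide for the least counted one, without following the counts gene by gene. The coefficient of variation between WT libraries was 1.44% for Pcsk2 and 2.09% for Cpe, where counting alone would give 2.22% and 1.55%, and 49.3% for Pnoc, where it would give 29.5%. For Pdyn it was 15.7% in WT and 7.44% in HAR123-KO, where counting would give 11.03% and 11.4%. The 4 HAR123-KO values of Oprm1 varied by 3.93%, less than the 19.8% that counting would give, so the narrow spread seen there is not a measure of its precision.

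Across the 12758 genes that DESeq2 tested, 38 (0.298%) passed the limits used here, which were an adjusted p under 0.05 together with a log2 fold change beyond 0.5 in either direction. Of these, 29 (0.227%) were higher and 9 (0.0705%) lower in HAR123-KO. Of the 9 opioid genes tested, Penk was the 1 past these limits, as the listing of the gene already implied. Without a limit on fold change, the adjusted p was under 0.05 for 215 genes (1.69%), 124 higher (0.972%) and 91 lower (0.713%), with Penk among the higher and Cpe among the lower. The genotypes did not overlap for 979 of the genes tested (7.67%), 513 higher (4.02%) and 466 lower (3.65%), beside Penk and Cpe of the 10 opioid genes. The median log2 fold change was -0.10 over all 10 opioid genes, Pnoc included, and -0.002 over all genes tested.

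**Figure D2:**
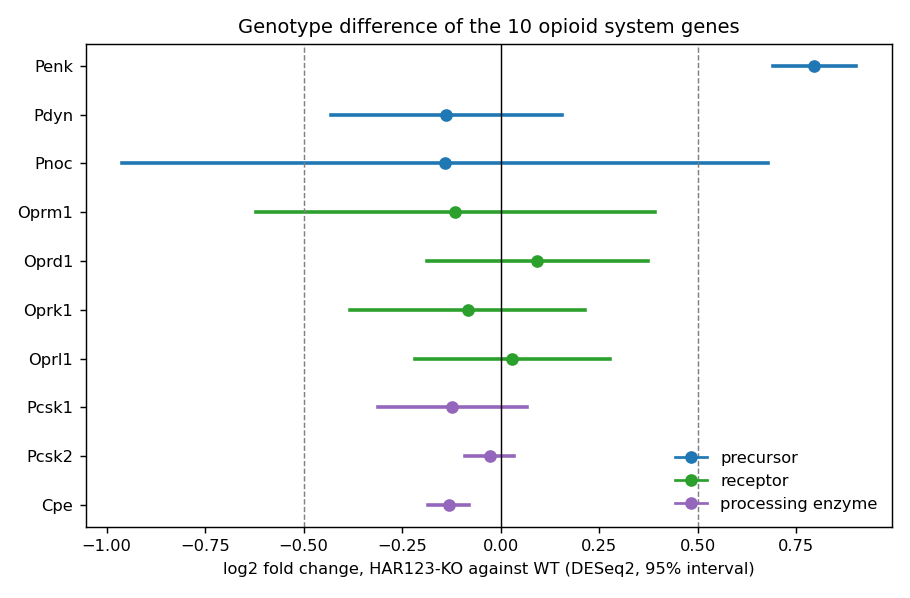
DESeq2 log2 fold change of HAR123-KO against WT (horizontal axis, point) with its 95% interval (line) for the 10 opioid system genes, coloured by role, with dashed lines at the limit of 0.5 in each direction. Penk (0.69 to 0.90) is the only 1 of the 10 whose interval lies beyond a dashed line, that of Cpe (-0.19 to -0.08) lies below 0 but within them, and those of the other 8 span 0.

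Levels were compared between genes as counts per kb of exon, scaled to 1000000 nuclear protein-coding counts per library. In WT cortex the order was Cpe (508 ± 10.5), Penk (92.5 ± 4.55), Pcsk2 (81.9 ± 1.003), Pcsk1 (10.9 ± 0.872), Pdyn (9.04 ± 1.41), Oprl1 (8.85 ± 0.474), Oprd1 (7.37 ± 1.20), Oprk1 (2.72 ± 0.356), Pnoc (1.76 ± 0.874) and Oprm1 (1.06 ± 0.224), each with its SD over 4 libraries. The steps from Cpe to Penk, Penk to Pcsk2, Pcsk2 to Pcsk1 and Oprd1 to Oprk1 exceeded the spread, since the library ranges of those neighbours did not overlap. The ranges did overlap between Pcsk1 and Pdyn, Pdyn and Oprl1, Oprl1 and Oprd1, Oprk1 and Pnoc, and Pnoc and Oprm1, so their order is not settled by these libraries. In HAR123-KO the same order held except that Pdyn and Oprl1 changed places.

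By role, Penk made up 89.6% ± 1.53 of the summed level of the 3 precursors in WT and 94.2% ± 0.402 in HAR123-KO (n = 4, SD), and Pdyn made up 8.76% ± 1.42 and 4.85% ± 0.302. The summed precursor level was 103 ± 5.20 in WT and 170 ± 5.92 in HAR123-KO, so the larger Penk share came with a larger sum. Among the receptors, Oprl1 (44.4% in WT and 44.3% in HAR123-KO) and Oprd1 (36.7% and 38.2%) made up most of the summed level, Oprk1 (13.6% and 12.7%) and Oprm1 (5.29% and 4.84%) the remainder. The summed receptor level was 20.01 ± 0.919 in WT and 20.4 ± 2.03 in HAR123-KO, a difference within the spread between libraries. The summed enzyme level, which is mostly Cpe (84.5% in WT), was 600.5 ± 11.4 in WT and 553 ± 12.5 in HAR123-KO.

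Set among the neuropeptide precursors of the cortex, Penk was one of the abundant ones. Its WT level came after those of Sst (166 ± 14.6), the somatostatin gene, and Cck (127 ± 15.98), the cholecystokinin gene, and its range overlapped that of Npy (86.5 ± 7.45), the neuropeptide Y gene. In HAR123-KO the Penk level was 160 ± 5.06, next to Sst. Pdyn (9.04 ± 1.41 in WT) came next after these 4 among the 22 precursors ranked in WT, but its range overlapped that of Tac1 (7.28 ± 1.02), and in HAR123-KO Tac1 (10.1 ± 2.02) ranked above Pdyn (8.24 ± 0.606).

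**Figure D3:**
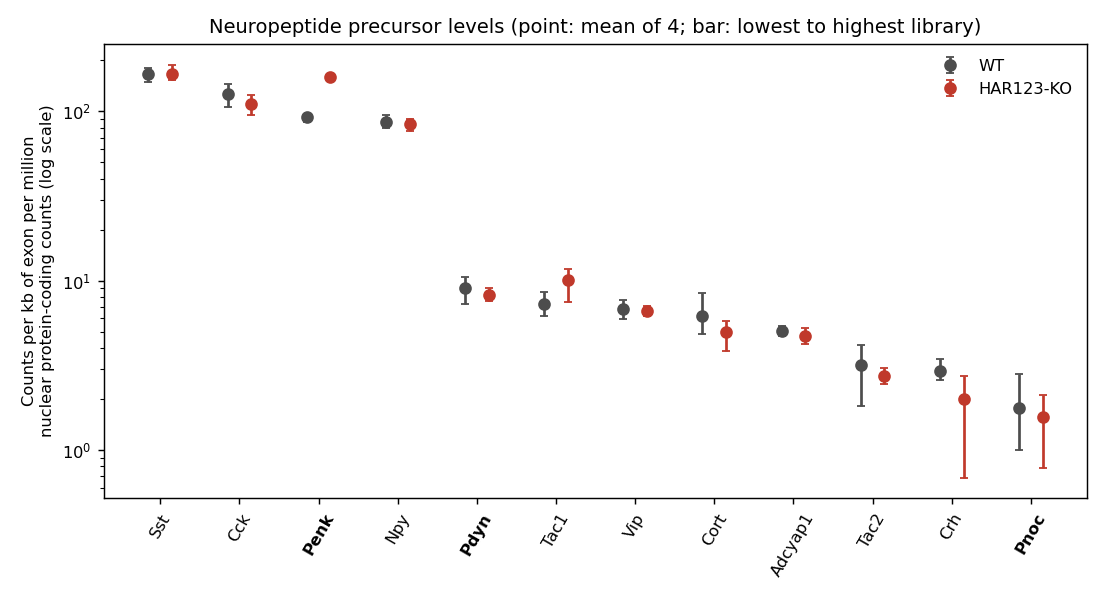
Level of 12 neuropeptide precursor genes with a mean of at least 10 raw counts (vertical axis, log scale, counts per kb of exon scaled to 1000000 nuclear protein-coding counts), with points at the mean of 4 libraries and bars from the lowest to the highest library, WT in grey and HAR123-KO in red, opioid precursors in bold. Penk moves from 92.5 in WT to 160 in HAR123-KO, while the WT and HAR123-KO ranges of Sst, Cck, Npy and Pdyn overlap.

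The rest of the pathway was examined in 6 lists of 106 genes, of which 83 were tested. These lists too were chosen with earlier results of these data known, so the counts below are descriptions. None of the 83 was past the limits by DESeq2, nor any of the 89 that edgeR and limma-voom tested, beside 0.298% of all genes tested by DESeq2, while 17 of the 83 had an unadjusted p under 0.05 in DESeq2, beside 8.78% of all genes tested. Without a limit on fold change, the adjusted p was under 0.05 for 6 of them (DESeq2 Wald test, Benjamini-Hochberg over all genes tested), to be read beside 1.69% of all genes tested. By edgeR it was under 0.05 for 11 of 89, beside 2.28% of all the genes edgeR tested.

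The signalling list held 37 genes downstream of the receptors, 36 of them tested, with a median log2 fold change of -0.00007. Rgs9, a regulator that shortens G protein signalling, was higher in HAR123-KO, with a log2 fold change of 0.46 ± 0.06 (DESeq2 adjusted p = 1.2e-11), and Adcy5, the adenylyl cyclase typical of the striatum, by 0.29 ± 0.04 (adjusted p = 8.0e-13). Both genes also stand in the list of striatal markers described next. Gnao1, the inhibitory G protein alpha subunit abundant in brain, was lower, with a log2 fold change of -0.11 ± 0.03 (DESeq2 adjusted p = 0.0157). Other abundant genes of the list, Adcy1 (-0.05) and Gnb1 (-0.05), had adjusted p-values of 0.63 or more. Kcnj9, a gene of the inwardly rectifying potassium channels, named after its values were seen, had a log2 fold change of -0.20 ± 0.06, with an adjusted p of 0.0653 by DESeq2 and 0.0164 by edgeR.

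None of the 18 tested processing and granule genes or the 7 tested peptidases that break down enkephalins had a DESeq2 adjusted p under 0.05. Sort1, Cadps, Chgb and Scg3, the granule genes with the most counts (not the highest level per length), had log2 fold changes of 0.005, -0.02, -0.05 and -0.15, and Scg3, which sorts granins into granules, had a DESeq2 adjusted p of 0.0781 and an edgeR adjusted p of 0.0320. By edgeR, 2 more granule genes, named after their values were seen, had an adjusted p under 0.05: Vgf (log2 fold change -0.23 ± 0.09, edgeR adjusted p = 0.0044, DESeq2 0.223) and Pcsk1n, which encodes an inhibitor of the Pcsk1 convertase (-0.36 ± 0.23, edgeR adjusted p = 0.0256, DESeq2 0.729). Among the peptidases, Npepps, Ece1, Nln and Dpp3 had log2 fold changes of -0.07, -0.15, 0.07 and -0.06. Of the same list and named after their values were seen, Ace had a log2 fold change of 0.33 ± 0.15 (DESeq2 adjusted p = 0.467), and Anpep, below the independent filter, had one of -1.10 ± 0.40, with 15.3 to 21.4 normalized counts in WT libraries and 1.76 to 14.9 in HAR123-KO (edgeR adjusted p = 0.0816). Of the 6 tested genes of other neuropeptides, the smallest adjusted p was that of Tac1, the substance P precursor of direct-type striatal neurons, whose log2 fold change was 0.48 ± 0.15 (DESeq2 adjusted p = 0.0647, edgeR adjusted p = 0.0214). Sst (0.01), Npy (-0.05) and Cck (-0.21) had adjusted p-values of 0.66 or more. Of the 3 tested genes among the other opioid ligands and receptors, Ogfrl1 (0.09), Ogfr (-0.08) and Ackr3 (0.57 ± 0.31) had adjusted p-values of 0.61 or more, and Pomc, the precursor of beta-endorphin, had means of 3.27 normalized counts in the WT libraries and 2.98 in HAR123-KO, too few to be tested.

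Immediate early genes are switched on in active neurons. Of the 13 tested, 3 had a DESeq2 adjusted p under 0.05 (beside 1.69% of all genes tested), 2 lower and 1 higher, and none was past the limits. Egr1 was lower (876 ± 36.1 normalized counts in WT, 699 ± 32.9 in HAR123-KO, log2 fold change -0.32 ± 0.05, DESeq2 adjusted p = 2.2e-08), as was Egr3 (-0.21 ± 0.06, adjusted p = 0.0143), while Nr4a1 was higher (0.36 ± 0.10, adjusted p = 0.0280). Arc had a log2 fold change of 0.18 ± 0.08 with an adjusted p of 0.47, and the median of the list was -0.16.

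The summed counts of the 3 lists of striatal projection neuron markers were higher in the HAR123-KO libraries, where Penk was higher too. These lists were chosen with earlier results of these data known. The study had already listed Drd2 and Adora2a as changed in this cortex. Counts of list genes past a limit are therefore descriptions and support nothing. All 12 genes of the shared list had a positive log2 fold change, with a median of 0.34, and 9 had a DESeq2 adjusted p under 0.05 (beside 1.69% of all genes tested), although none exceeded the fold change limit. Their summed normalized counts were 7917 to 8112 in WT and 10027 to 10195 in HAR123-KO, a ratio of 1.26. Ppp1r1b, which encodes the dopamine-regulated phosphatase inhibitor of these neurons, was higher by 0.36 ± 0.05 (adjusted p = 2.3e-12). In the list of the indirect type, 2 of the 4 genes tested rose past the limits (beside 0.298% of all genes tested): the dopamine receptor gene Drd2 (118 ± 18.2 to 185 ± 13.6 normalized counts, log2 fold change 0.65 ± 0.11, adjusted p = 2.4e-06) and the adenosine receptor gene Adora2a (162 ± 10.3 to 231 ± 31.0, 0.51 ± 0.10, adjusted p = 9.7e-05). Adora2a lay at the fold change limit and was no longer past the limits in 5 of 15 alternative fits, including those without WT replicate 2 (0.46), HAR123-KO replicate 2 (0.47) or HAR123-KO replicate 4 (0.45). In the list of the direct type, Drd1 had a log2 fold change of 0.38 ± 0.10 (adjusted p = 0.0120) and the summed ratio was 1.16. Not every marker of a type was higher: 3 of 4 tested genes of the indirect list and 3 of 5 of the direct list had a positive log2 fold change, and Sp9 (-0.16 ± 0.31) of the former and Sfxn1 (-0.08 ± 0.12) and Eya1 (-0.16 ± 0.20) of the latter, named after their values were seen, were negative with intervals that span 0.

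The log2 fold change of Penk lay above that of each of the 20 striatal markers plotted, although the 95% intervals of Drd2, Adora2a, Tac1 and Gpr6 (the last named after its values were seen) reached into that of Penk. Isl1, a direct-type marker with too few counts to be tested, not plotted and named after its values were seen, had a larger log2 fold change of 1.13 ± 0.50, from means of 5.20 and 11.1 normalized counts. Divided by the summed normalized counts of the shared striatal list, Penk was 0.0594 ± 0.00261 in WT and 0.0815 ± 0.00315 in HAR123-KO (n = 4, SD), and these ratios did not overlap between genotypes. Divided by the list of the indirect type, whose summed counts ran from 305 to 345 in WT and from 442 to 526 in HAR123-KO (a ratio of 1.46), Penk was 1.43 ± 0.116 in WT and 1.71 ± 0.193 in HAR123-KO, and the ranges of 1.31 to 1.58 and 1.503 to 1.89 overlapped. Divided by the list of the direct type, it was 0.855 ± 0.0711 and 1.27 ± 0.0710. In bulk tissue, a change in the number of cells of a type cannot be told apart from a change in RNA per cell. The part of these markers in the Penk difference was not tested.

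**Figure D4:**
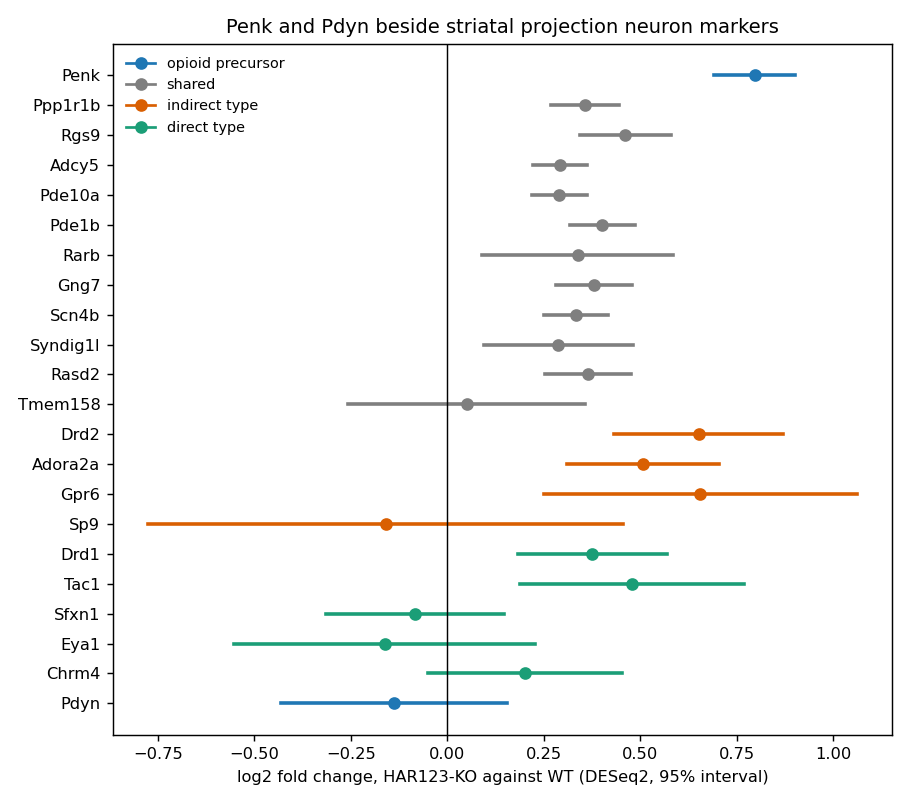
DESeq2 log2 fold change of HAR123-KO against WT (horizontal axis, point) with its 95% interval (line) for Penk and Pdyn in blue and 20 of the 21 tested striatal projection neuron markers, shared in grey, of the indirect type in orange and of the direct type in green. The points of all 11 shared markers plotted lie above 0, but the interval of Tmem158 (-0.26 to 0.36), named after its values were seen, spans 0. The point of Penk (0.80) lies above that of each of the 20 markers shown, and the point of Pdyn (-0.14) lies on the other side of 0.

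Other cell type markers also differed between the genotypes. Their lists too were chosen with earlier results known, and the study had already listed Ttr, Kl, Nr4a2 and Vwf as changed. The summed choroid plexus list was 963 to 1011 normalized counts in the WT libraries and 1887 to 1999 in HAR123-KO (a ratio of 1.97), with Ttr, the transthyretin gene of that epithelium (log2 fold change 3.24 ± 0.10, DESeq2 adjusted p = 4.7e-216), and Kl (1.99 ± 0.32, adjusted p = 3.9e-07) past the limits. Ttr went from a mean of 68.2 to 641, so it makes up much of the summed difference and the ratio does not describe each gene. Of the 11 list genes, 3 were tested, and 10 were higher without overlap, beside 4.02% of all genes tested. The list of claustrum and deepest-layer genes had a summed ratio of 0.731, and Nr4a2 fell, with a log2 fold change of -0.81 ± 0.11 (adjusted p = 1.5e-11). The endothelial list had a ratio of 0.775, and Vwf fell, with a log2 fold change of -0.90 ± 0.16 (adjusted p = 7.3e-06). Oligodendrocyte (1.12), interneuron (1.03), microglia (0.955), astrocyte (0.931) and cortical projection neuron (0.923) lists had ratios nearer 1. Gad1, a marker of interneurons and striatal projection neurons alike, had a log2 fold change of 0.05 ± 0.04 (adjusted p = 0.88). Of the same interneuron list and named after their values were seen, Gad2 (0.12 ± 0.05), Slc32a1 (0.15 ± 0.08) and Dlx1 (0.37 ± 0.18) had larger log2 fold changes. None of these had an adjusted p under 0.05 by DESeq2. The counts of Gad2 and Dlx1 were higher without overlap, 2 of the 14 list genes, beside 4.02% of all genes tested. Slc17a7, the vesicular glutamate transporter gene of cortical projection neurons, had a log2 fold change of -0.16 ± 0.03 (adjusted p = 8.2e-06). The lower Cpe counts stood beside the lower sums of the astrocyte list (23138 to 23865 in WT, 21505 to 22093 in HAR123-KO) and the cortical projection neuron list (7257 to 7492 and 6641 to 7039). No marker was at 0 in all libraries. The part of these lists in the Penk or Cpe differences was not tested.

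The genes most like Penk over the 8 libraries were found by Pearson correlation of log2(normalized count + 1) among the 9279 genes that averaged 50 normalized counts or more. They were Rgs9 (r = 0.996), Ide (0.995), Ttr (0.993), Adcy5 (0.986) and mt-Rnr1 (0.983), all of them higher in HAR123-KO. The 8 points fall into the 2 genotypes, so these coefficients describe mainly a shared genotype difference. In size these differences were unlike, with log2 fold changes of 0.46 ± 0.06 for Rgs9, 0.67 ± 0.08 for Ide, the insulin-degrading enzyme gene, 3.24 ± 0.10 for Ttr, 0.29 ± 0.04 for Adcy5 and 0.16 ± 0.02 for mt-Rnr1, a mitochondrial ribosomal RNA, beside 0.80 for Penk.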

How the data were processed

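The deposited table holds raw counts for each gene, which the authors obtained with STAR 2.5.2b against GRCm38, an Ensembl annotation and featureCounts. Settings for strand and for reads with several matches are not given in the sources used here. All 55536 identifiers were found in GENCODE M21 with the same start and end, and symbols, exon lengths and transcript sequences came from there. The table had 0 unused sample columns. Samples were grouped by genotype from their titles. All genes were fitted together in R 4.3.3 with DESeq2 1.42.0, whose Wald test compared the genotypes without a further term, after division by median-of-ratios factors. Adjustment (Benjamini-Hochberg) covered the 12758 genes that passed the independent filter (alpha 0.1). Limits were 0.05 for the adjusted p and 0.5 in either direction for the log2 fold change. The fits were tested on simulated data. The alternatives were edgeR 4.0.16 (quasi-likelihood), limma-voom (limma 3.58.1), TMM factors or nuclear protein-coding totals as size factors, a filter of 10 counts in at least 4 libraries, the independent filter off, stricter limits, no minimum fold change, the replicate number as a block and leaving out each library.

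The 10 genes and all lists were chosen with earlier results of these data known. No p-value is printed for the 10 genes, and those past a limit are only counted beside the share of all genes. Named besides them were list genes past the limits, up to 4 genes of each pathway list with the highest mean, the 5 genes most like Penk and 7 fixed markers. Other list genes are named after their values were seen, as the text says at each, and overlapping genes for their position. Gpr52 and Ctgf were not analysed here, and 2 genes that the naming rule covers are not reported here. PCR copies were not marked by molecular tags, so counting error understates the error of 1 library.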

Additional observations from a re-analysis of the deposited data

Results flagged for a closer look

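Among the 20 groups of 4 libraries examined (10 genes in 2 genotypes), 1 library lay far from the other 3 of its group. Oprk1, the kappa receptor gene, had 60.4 normalized counts in HAR123-KO replicate 1 and 77.02 to 79.8 in the other 3 libraries, so that the gap made up 0.858 of the whole range and exceeded Dixon's critical value at 95%. Chance alone gives about 1 such group in 20. The value lies near the lowest WT library (65.3).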

How the results depend on the processing

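The Penk difference kept its direction and size in all 14 alternative fits (log2 fold change 0.79 to 0.80 with other tests, scalings and filters, and 0.76 to 0.82 without 1 library). The other 9 genes had a median of -0.11, and each moved by less than its standard error in the main fit. Pnoc, Oprd1, Oprk1 and Oprl1, however, changed sign in 2 fits each that left out a library. The count of 38 genes past the limits became 73 with edgeR, 3 under the stricter limits (adjusted p under 0.01, log2 fold change over 1), 215 with no minimum fold change and 11 to 44 without 1 library, of which 18 without WT replicate 3 and 11 without HAR123-KO replicate 4. The count of 0 pathway genes past the limits became 6 with no minimum fold change, and 0 to 1 without 1 library, the 1 being Tac1 without HAR123-KO replicate 4. In the order of WT levels all 10 ranks held when scaled to all counts, and 8 to 10 without 1 WT library, because Pdyn and Oprl1 changed places without WT replicate 2 or 3. Scaling by TMM or by protein-coding totals left the median of all genes within 0.002 of 0. The cause of these changes was not tested.

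The replicate numbers do not pair the samples: deviations of same-numbered libraries correlated at -0.02 to 0.02 over 8793 genes. With the number as a replicate block, 9 genes passed the limits, and Drd2 (adjusted p = 0.107), Adora2a (0.483) and Vwf (0.124) did not.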
